A study of Mus musculus with 16 samples.

Results

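Regions of open chromatin were described at the loci of 9 genes that write, maintain or remove DNA methylation, namely Dnmt1, Uhrf1, Dnmt3a, Dnmt3b, Dnmt3l, Tet1, Tet2, Tet3 and Tdg. A region belonged to a locus when its centre lay in the gene body or within 50 kb of an annotated transcription start site (TSS) of the gene in GENCODE M21 on mm10. This rule took 115 of the 81132 regions, and no region fell into the loci of 2 of these genes. The farthest region taken lay 48878 bp from a TSS of Dnmt3b outside its gene body, and the nearest region left out lay 51668.5 bp from a TSS of Dnmt1.

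DNA methylation in mammals is found mostly at CpG dinucleotides. DNMT3A and DNMT3B set new marks, helped by the catalytically inactive DNMT3L, while DNMT1, brought by UHRF1 to hemimethylated DNA behind the replication fork, copies the pattern to the new strand. The TET dioxygenases oxidise 5-methylcytosine, and TDG excises its formyl and carboxyl forms for repair, so that an unmodified cytosine can be restored. Both arms are active in mouse ES cells, whose level of methylation is known to vary with the culture medium.

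The study used ATAC-seq, in which the transposase Tn5 cuts accessible DNA, to compare mouse ES cells that differ in the amounts of the transcription factors SOX2 and OCT4. All cells were of the SBROS line, which descends from CGR8 ES cells carrying reporters for Sox1 and Brachyury and in which both Sox2 alleles carry a SNAP tag and a single Oct4 allele a HALO tag. The line is a single clone. Cells were grown in serum with LIF and the inhibitors CHIR99021 (3 µM) and PD184352 (0.8 µM) and sorted in G1 into 4 populations of the same genotype and medium, SOX2 high and OCT4 high (SHOH), SOX2 high and OCT4 low (SHOL), SOX2 low and OCT4 high (SLOH) and SOX2 low and OCT4 low (SLOL), with 3 libraries each. The list analysed here pools the peaks of all 12 libraries into regions given by position alone, so that a region may come from any number of them, no population can be compared with another, and the depth behind a region is unknown.

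The cell type was checked at marker genes. A region covered a TSS of a protein-coding transcript at 8 of 10 ES cell markers, including Pou5f1, Zfp42, Esrrb and Klf4, while the nearest region lay 243 bp from the TSS of Sox2 and 4218 bp from that of Nanog. The same was found at 6 of 6 trophoblast, 6 of 6 primitive endoderm, 4 of 5 neural, 3 of 4 mesoderm and 4 of 8 fibroblast markers, compared with 59.5% of all protein-coding genes, so starts alone did not set the ES cell markers apart from those of other early lineages. The number of regions, which was not set against the length of these loci, had a median of 12.5 for the ES cell markers, 11.5 for trophoblast, 9.5 for mesoderm, 9 for neural, 6.5 for primitive endoderm and 5.5 for fibroblast markers, compared with 6 for all protein-coding genes, and the locus of the fibroblast marker Lum held 0 regions.

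Of the starts described below, 10 are shown by the 150 bases upstream of them, read 5′ to 3′ on the gene's strand from the GRCm38.p6 assembly, of which mm10 is the chromosome set. Capitals mark exact matches on either strand to the promoter motifs found there, which are the GC box (GGGCGG), the CCAAT box (CCAAT followed by CA, GA, CG or GG), the cAMP response element CRE (TGACGTCA) and the E-box (CACGTG).
Dnmt1-201, chr9:20952980-20953129, minus strand: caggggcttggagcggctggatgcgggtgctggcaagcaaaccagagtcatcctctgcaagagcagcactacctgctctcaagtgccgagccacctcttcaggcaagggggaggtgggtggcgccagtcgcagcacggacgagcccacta
Uhrf1-201, chr17:56303171-56303320, plus strand: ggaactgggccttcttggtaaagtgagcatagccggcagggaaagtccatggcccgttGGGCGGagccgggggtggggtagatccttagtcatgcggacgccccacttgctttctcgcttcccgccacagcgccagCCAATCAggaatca
Dnmt3a-201, chr12:3806880-3807029, plus strand: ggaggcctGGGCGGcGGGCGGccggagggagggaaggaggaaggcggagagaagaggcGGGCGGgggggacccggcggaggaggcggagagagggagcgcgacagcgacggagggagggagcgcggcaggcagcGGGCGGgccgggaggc
Dnmt3a-205, chr12:3891578-3891727, plus strand: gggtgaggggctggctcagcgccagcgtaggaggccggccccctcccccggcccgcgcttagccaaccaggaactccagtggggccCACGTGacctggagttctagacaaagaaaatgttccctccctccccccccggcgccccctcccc
Dnmt3b-202, chr2:153649300-153649449, plus strand: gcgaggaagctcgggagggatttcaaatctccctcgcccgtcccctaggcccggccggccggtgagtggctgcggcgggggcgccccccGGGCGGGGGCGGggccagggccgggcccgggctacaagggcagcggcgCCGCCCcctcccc
Dnmt3l-201, chr10:78049692-78049841, plus strand: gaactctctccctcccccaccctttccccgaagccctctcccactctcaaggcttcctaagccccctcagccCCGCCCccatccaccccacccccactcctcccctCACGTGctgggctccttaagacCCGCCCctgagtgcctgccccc
Tet1-209, chr10:62892987-62893136, minus strand: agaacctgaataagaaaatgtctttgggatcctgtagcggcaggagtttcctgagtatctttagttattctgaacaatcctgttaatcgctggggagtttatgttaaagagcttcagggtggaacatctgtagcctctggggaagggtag
Tet2-201, chr3:133544391-133544540, minus strand: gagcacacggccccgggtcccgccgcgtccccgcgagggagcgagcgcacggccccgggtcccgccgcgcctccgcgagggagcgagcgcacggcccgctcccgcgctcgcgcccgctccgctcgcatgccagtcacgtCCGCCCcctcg
Tet3-202, chr6:83441676-83441825, minus strand: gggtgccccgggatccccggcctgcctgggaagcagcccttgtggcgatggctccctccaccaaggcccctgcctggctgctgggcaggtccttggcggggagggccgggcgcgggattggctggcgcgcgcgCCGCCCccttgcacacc
Tdg-201, chr10:82629678-82629827, plus strand: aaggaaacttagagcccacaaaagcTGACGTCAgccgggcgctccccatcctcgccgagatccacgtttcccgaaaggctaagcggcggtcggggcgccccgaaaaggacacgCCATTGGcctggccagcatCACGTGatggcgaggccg

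A GC box was present in 6 of these 10 stretches, a CCAAT box in 2, an E-box in 3 and a CRE in 1. Upstream of the 21938 protein-coding genes, the same length held a GC box at 37.2% of them, a CCAAT box at 14.8%, an E-box at 4.68% and a CRE at 1.81%. The stretches differed widely in CpG content: the one before Tet2-201 held 30 CpGs, those before Dnmt3a-201 and Dnmt3b-202 held 19 and 18, and that before Tet1-209, which is not the principal start of Tet1, held 2. The median was 10.5 for the 10 stretches and 6 for all protein-coding genes. The starts of Dnmt3a-205, Tet3-202 and Tdg-201 are likewise not principal ones. Because the 10 starts were chosen, with a pair from Dnmt3a, the values over all protein-coding genes are not a matched comparison.

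Further stretches of 61 bases show distal regions with matches to the octamer (ATGCAAAT, capitals), the element bound by OCT4, or to the core shared by SOX and OCT elements (TTGTNATGC, capitals), and regions with a match to the CTCF motif (capitals), each on the strand of the gene whose locus holds it. The octamer and the core have the letters ATGC in common and can overlap.
Dnmt3l locus, octamer and core, chr10:78096814-78096874, plus strand: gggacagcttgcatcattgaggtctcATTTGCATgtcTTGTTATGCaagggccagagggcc
Tet1 locus, octamer, chr10:62804113-62804173, minus strand: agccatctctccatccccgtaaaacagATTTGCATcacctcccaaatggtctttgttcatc
Tet2 locus, octamer, chr3:133513642-133513702, minus strand: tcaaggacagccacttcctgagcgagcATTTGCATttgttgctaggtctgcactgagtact
Tet2 locus, core, chr3:133534461-133534521, minus strand: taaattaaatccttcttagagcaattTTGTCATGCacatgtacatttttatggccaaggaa
Uhrf1 locus, CTCF, chr17:56291353-56291413, plus strand: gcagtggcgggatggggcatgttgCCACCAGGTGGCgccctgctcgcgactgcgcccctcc
Dnmt3a locus, CTCF, chr12:3906497-3906557, plus strand: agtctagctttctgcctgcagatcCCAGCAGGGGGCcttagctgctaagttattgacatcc
Dnmt3b locus, CTCF, chr2:153694642-153694702, plus strand: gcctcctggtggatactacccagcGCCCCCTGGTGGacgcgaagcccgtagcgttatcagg
Dnmt3l locus, CTCF, chr10:78028259-78028319, plus strand: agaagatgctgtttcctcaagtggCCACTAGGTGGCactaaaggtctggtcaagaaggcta

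The 9 loci held between 8 regions (Tdg) and 18 regions (Dnmt3a), with a median of 13. Over all 21938 protein-coding genes, the same rule gave a median of 6 regions per locus, and a median of 8 over the 13007 genes with a region on a TSS of a protein-coding transcript. Dnmt3a (18), Tet2 (17) and Tet1 (15) held the most and are also the longest loci (201, 173 and 194 kb), so regions were counted per length as well. Per 100 kb of locus, Uhrf1 came first with 11.3 regions, followed by Dnmt3b with 10.8, Tet2 with 9.81, Dnmt3a with 8.96, Dnmt3l with 8.82, Dnmt1 with 7.95, Tet1 with 7.71, Tdg with 6.83 and Tet3 with 6.13. All 9 lay above the median of 5.00 over all protein-coding genes, from percentile 59.5 for Tet3 to percentile 90.2 for Uhrf1, and 8 lay above the median of 6.16 over the genes with a region on a TSS, the exception being Tet3. No chance level was computed for these positions, which describe the list alone.

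**Figure D1:**
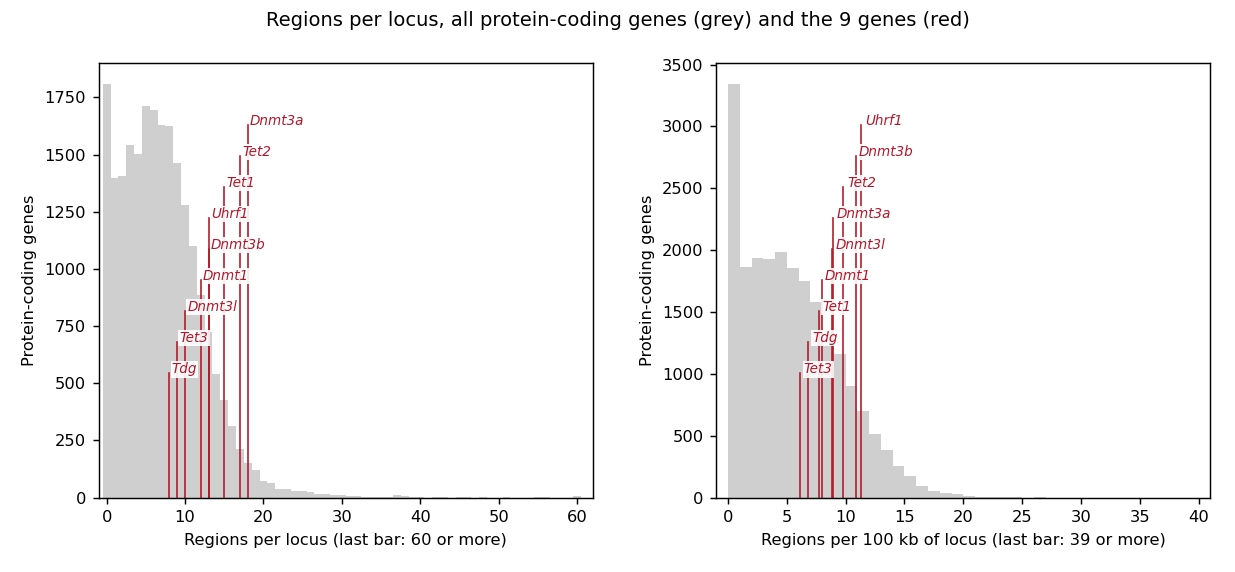
Number of protein-coding genes (grey bars) by regions per locus (left) and by regions per 100 kb of locus (right), with the 9 genes as red lines whose heights only separate the labels. The 9 genes hold 8 to 18 regions, and Uhrf1 has the highest density with 11.3 regions per 100 kb.

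**Figure D2:**
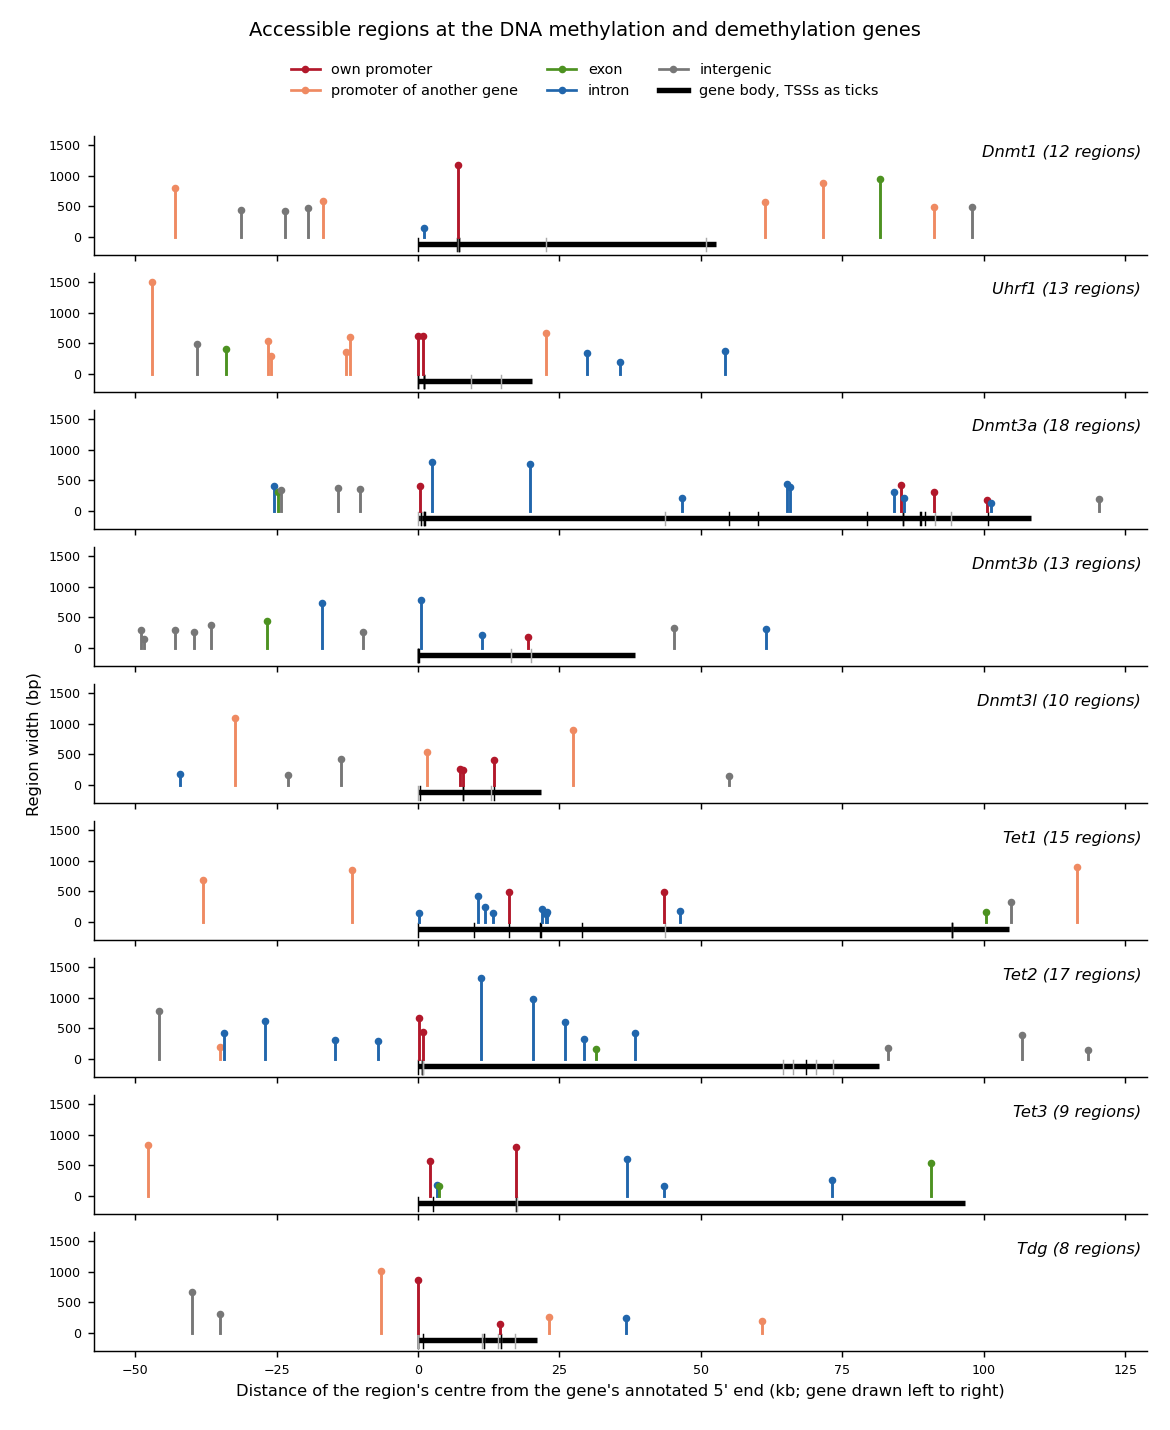
Regions at each locus by the distance of their centre from the gene's annotated 5′ end (kb) and their width (bp, height of each stem), coloured by their place in the annotation; black bars are gene bodies, black ticks TSSs of protein-coding transcripts and grey ticks other TSSs. Tet1, Dnmt3a and Tet3 carry most of their regions within the gene body (11 of 15, 12 of 18 and 8 of 9), and Dnmt1 2 of 12.

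At every one of the 9 genes a region covered a TSS of at least 1 protein-coding transcript, compared with 59.5% of the 21853 protein-coding genes with such transcripts. A gene with more annotated starts has more chances to be counted, and Dnmt3a and Tet1 have 13 and 8 coding starts. Their only covered coding starts were those of Dnmt3a-206 and Tet1-209, annotated with 193 and 47 residues. The number of genes counted fell to 5 of 9 when the TSSs of APPRIS principal transcripts were used, the isoforms annotated as the main ones, compared with 55.7% of all protein-coding genes, and to 3 of 9 with the annotated 5′ end of the gene, compared with 52.5%. Dnmt1, Uhrf1, Dnmt3l, Tet2 and Tdg had a region on a principal start, whereas at Dnmt3a, Dnmt3b, Tet1 and Tet3 the nearest region began 421, 72, 583 and 273 bp away from it. A region overlapping a ChIP-seq input peak was discarded by the authors, and whether any such peak lay at these starts was not tested.

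**Figure D3:**
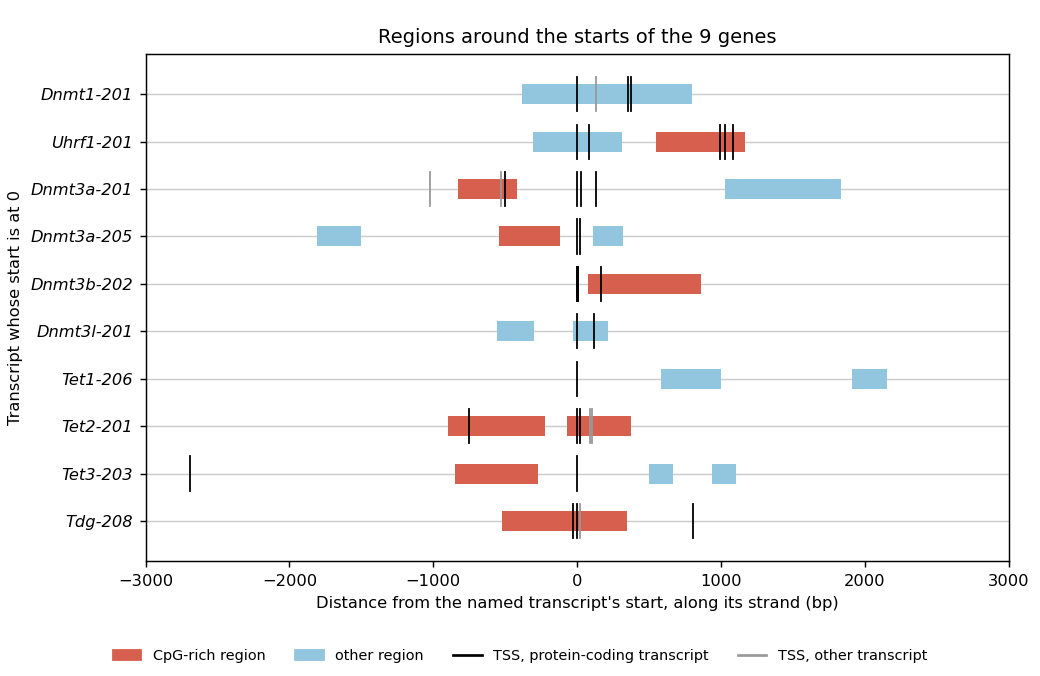
Regions within 3000 bp of 10 transcript starts of the 9 genes, drawn to scale along the gene's strand with the named start at 0; vertical ticks are TSSs and red marks CpG-rich regions. The starts of Dnmt3a-201, Dnmt3a-205, Dnmt3b-202, Tet1-206 and Tet3-203 lie beside regions, and the others lie in them.

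Of the maintenance genes, Dnmt1 lies on the minus strand of chromosome 9 (chr9:20907209-20959888) and encodes the maintenance methyltransferase. Its region chr9:20952182-20953361, with 1180 bp the widest of the locus, covered the starts of 3 protein-coding transcripts, including the principal Dnmt1-201 of 1620 residues. The others were Dnmt1-203 and Dnmt1-207, annotated with shorter proteins of 1501 and 1502 residues. The separate upstream start of Dnmt1-202, 6909 bp before that of Dnmt1-201 and likewise annotated with 1501 residues, lay in no region. The nearest region to it, only 141 bp wide, was 1064 bp away. Dnmt1 is known to use a separate first exon in oocytes. From the somatic start region to the region on the start of Eif3g, a stretch of 53282 bp that takes in most of the Dnmt1 gene body held no region. The remaining regions lay outside the gene, 5 of them in promoters of other genes, on starts of Mrpl4, S1pr2, Eif3g, Ppan and A230050P20Rik, and only 2 of the 12 were closest to a TSS of Dnmt1. The widest region outside promoters, 937 bp in an exon 81.6 kb downstream of the 5′ end, lay 1459 bp from the closest TSS, that of Angptl6.

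Uhrf1, which recognises hemimethylated CpGs and recruits DNMT1, lies at chr17:56303321-56323486 on the plus strand. Both of its clusters of starts were covered, the first by chr17:56303011-56303634 (624 bp) and the second, 992 bp downstream, by chr17:56303869-56304485 (617 bp). The second region was CpG-rich, by a GC content of at least 50% and a ratio of observed to expected CpGs of at least 0.6 (65.6% and 0.904), and the first was slightly below the ratio (57.1% and 0.574). Both held a GC box, a CCAAT box and an E2F match (TTTCCCGC or TTTGGCGC), and the second also held a match for NRF1 (GCGCATGCG). The rest of the Uhrf1 gene body held no region. Outside it, 6 of 13 regions lay in promoters of other genes, 4 of them covering starts of Fem1a, Ticam1, Plin3 and Kdm4b. The widest region of all 9 loci, 1500 bp, lay on the start of Fem1a, 47.0 kb upstream of Uhrf1, and held 2 CTCF matches. Outside promoters, the widest of the locus was a region of 485 bp, 39.1 kb upstream, which also held a CTCF match.

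Of the de novo methyltransferases, Dnmt3a (chr12:3806007-3914443, plus strand) had the most regions, 12 of 18 within the gene. Its principal starts, Dnmt3a-201 and Dnmt3a-218 with 908 residues, lay between a CpG-rich region of 407 bp (chr12:3806203-3806609), which covered the start of the short transcript Dnmt3a-206, and an intronic region of 805 bp (chr12:3808057-3808861), the widest of the locus. The internal starts of Dnmt3a-205 and Dnmt3a-203, which encode a form of 689 residues lacking the N-terminal part, lay 85721 and 85737 bp into the gene and fell likewise between regions, chr12:3891184-3891608 upstream and chr12:3891839-3892047 downstream, the latter 111 and 95 bp away. The shorter form, DNMT3A2, is known as the main DNMT3A protein of ES cells. At both the long and the short form's promoter, the annotated starts sat in a gap flanked by regions. Other intronic regions were spread over the gene body, among them a region of 760 bp 19.9 kb into the gene and a pair 65.2 and 65.8 kb into it. The 3 regions 24.2 to 25.4 kb upstream of the 5′ end were closest to starts of Dtnb. Pomc, the neighbour with a protein-coding start inside the locus, had no region on it.

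Dnmt3b (chr2:153649450-153687730, plus strand) has its protein-coding starts within 167 bp, and the region chr2:153649525-153650309 began 71 to 75 bp downstream of all of them except that of Dnmt3b-207, which it covered. This region was 785 bp wide, CpG-rich (67.5% GC, CpG ratio 0.856) and the widest of the locus, and its centre fell in the first intron by annotation. Within the gene followed a pair of regions, 209 bp wide at 11.4 kb and 178 bp wide at 19.5 kb. Upstream of Dnmt3b the list held 8 regions, of which 1 covered a start of Commd7 (738 bp) and the others lay in intergenic DNA or in an exon, the farthest 48.9 kb away. Dnmt3c, a rodent-specific relative of Dnmt3b that acts in male germ cells, begins 47202 bp downstream of the 5′ end of Dnmt3b; no region covered its start, and the nearest was 1715 bp away.

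At Dnmt3l (chr10:78041947-78063622, plus strand), the cofactor of the de novo enzymes, the start of the upstream transcript Dnmt3l-205 was in no region, the nearest being 1001 bp away on the start of Aire. The starts of Dnmt3l-201 and Dnmt3l-208, both annotated with 421 residues like Dnmt3l-205, lay in the region chr10:78049811-78050056 of 246 bp, with another region of 258 bp 270 bp upstream of it. A further region of 404 bp (chr10:78055169-78055572) covered the starts of 3 short coding transcripts. None of the 3 own promoter regions of Dnmt3l was CpG-rich, and the region at Dnmt3l-201 reached a CpG ratio of 0.541. The CpG-rich regions of the locus covered starts of Pfkl (1099 bp), Aire (538 bp) and Icosl (894 bp), apart from a distal one of 169 bp. The widest region outside promoters, 417 bp, lay 13.6 kb upstream and held a CTCF match.

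Of the oxidising enzymes, Tet1 (chr10:62804570-62908996, minus strand) had 15 regions, whose widths had the lowest median of the 9 loci, 247 bp. The principal start, that of Tet1-206 with 2039 residues, lay 583 bp from the region chr10:62898118-62898535. The only protein-coding start within a region was that of Tet1-209, annotated with a fragment of 47 residues, in chr10:62892678-62893174 (497 bp). This region was CpG-poor (46.7% GC, CpG ratio 0.152), whereas a run of 3 regions of 209, 126 and 159 bp just downstream of the starts of Tet1-210 and Tet1-207 had ratios of 0.573, 0.548 and 0.779. The region nearest to the start of Tet1-201, which encodes 2007 residues, was 6149 bp away. In the first part of the gene, from 10.7 to 16.1 kb downstream of the 5′ end, 4 regions lay in a row, and 2 of them held a SOX match (CCATTGT or CCTTTGT). Towards the 3′ end, a stretch of 53889 bp held no region. Starts of Dna2, Slc25a16 and Ccar1 were each covered by a CpG-rich region wider than any region assigned to Tet1's own starts. The widest region outside promoters was chr10:62898118-62898535 itself with 418 bp.

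Tet2 (chr3:133463679-133545139, minus strand) had 17 regions, and Tet2 was the protein-coding gene with the closest TSS, of any of its transcripts, for all of them, the single locus of the 9 where this held. When genes of any type were considered, 10 of the 17 were closest to a TSS of Tet2. A pair of CpG-rich regions, chr3:133544612-133545286 (675 bp) and chr3:133544019-133544459 (441 bp), covered 3 of its 4 protein-coding starts, the second that of the principal Tet2-201 with 1912 residues; the start of Tet2-207 (157 residues) lay 14343 bp from the nearest region. Downstream, 6 regions followed 11.2 to 38.4 kb into the gene, 5 intronic and 1 exonic. Among them was chr3:133533286-133534614, with 1329 bp the widest non-promoter region of all 9 loci, followed by a region of 984 bp at 20.4 kb and of 611 bp at 26.1 kb. These wide regions had a low GC content (44.8%, 42.9% and 46.0%) and few CpGs (ratios of 0.240, 0.222 and 0.0930). From the last of the 6 regions to just past the 3′ end, 44258 bp held no region. Of the 17 regions, 6 held a SOX match, compared with 16.0% of all regions; by locus, the share ran from 1 of 18 at Dnmt3a to 5 of 12 at Dnmt1.

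Tet3 (chr6:83362373-83459084, minus strand) had 9 regions, 8 of them in the gene body. The principal start, that of Tet3-203 with 1803 residues, lay 273 bp downstream of a CpG-rich region (chr6:83456665-83457244, 580 bp, 72.1% GC), and a pair of narrow regions (174 and 163 bp) lay on its other side. The start of Tet3-202, 17409 bp into the gene and encoding 1668 residues, was covered by chr6:83441295-83442095 (801 bp). Beyond it, 4 regions were scattered through the gene body, 37.0 to 90.8 kb from the 5′ end, and the widest of them outside promoters had 599 bp. Upstream of Tet3, a single region was found within the locus, on the start of Dguok 47.8 kb away, after a stretch of 49213 bp without one.

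Tdg (chr10:82629828-82650799, plus strand), the glycosylase that excises oxidised methylcytosine, had the fewest regions. A CpG-rich region of 873 bp (chr10:82629333-82630205; 63.9% GC, CpG ratio 0.844) covered the starts of Tdg-201 and of the principal Tdg-208 with 421 residues. It held the CRE, CCAAT box and E-box matches shown above and a SOX match. With its centre in the gene body, a single region of 151 bp lay 14.5 kb from the 5′ end, and it had the highest CpG ratio of the 115 regions (1.14). A wider region of 1023 bp lay on the start of 1190007I07Rik, 6.60 kb upstream of Tdg, and a pair of regions of 261 and 195 bp covered starts of Glt8d2 downstream. The widest region outside promoters (678 bp, 39.9 kb upstream) consisted to 59.9% of repeats.

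Many of the regions lay at neighbouring genes. The loci contained protein-coding starts of 23 other genes, of which 19 were covered by a region, compared with 59.5% of all protein-coding genes. All were covered at Dnmt3l, Tet1, Tet3 and Tdg, 5 of 6 at Dnmt1 and 0 of 1 at Dnmt3a, and Tet2 had no such neighbour. Of the 115 regions, 50 were closest to a TSS of a member gene, and 61 when only protein-coding genes were considered. At Dnmt1, Uhrf1 and Tdg, 2 regions each were closest to the gene itself, compared with 13 at Dnmt3a and 11 at Tet1.

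By the annotation at their centre, 41 of the 115 regions lay in promoters, taken as the TSS of any gene with the 1000 bp before it and the 100 bp after it, which is 35.7% (95% Wilson interval 27.5% to 44.7%, for counting error only). Of these, 19 were in promoters of the member genes and 22 in promoters of others. Another 40 lay in introns, 26 in intergenic DNA and 8 in exons. Promoters made up 20.9% of all 81132 regions, and 24.9% of the 66044 regions that the same rule assigns to any protein-coding gene, which is the closer comparison since the rule starts from TSSs. With promoters of 5 kb to both sides, the share was 62.6% at the 9 loci and 45.7% of all regions. The median width was 394 bp at the 9 loci and 355 bp over all regions, and 24 of 115 regions were narrower than 200 bp (20.9%, compared with 19.8% of all). At least 50% of the sequence was repeats in 6 of 115 regions (5.22%, interval 2.41% to 10.9%), compared with 13.8% of all regions and 10.8% of those at any protein-coding gene.

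CpG-rich regions numbered 29 of 115 (25.2%, interval 18.2% to 33.9%), compared with 19.7% of all regions and 23.2% of those at any protein-coding gene. They were found in 15 of 22 promoters of other genes and in 8 of 19 own promoters, and in 6 of the 74 regions outside promoters. The 8 own promoter regions belonged to Uhrf1, Dnmt3a, Tet2, Tet3 and Tdg. The region on the start of Dnmt1 fell short with a CpG ratio of 0.571 at 62.1% GC, the CpG-rich region at Dnmt3b was counted as intronic, and Dnmt3l and Tet1 had none in their own promoters. The median CpG ratio was 0.571 in own promoters and 0.692 in promoters of other genes at these loci, compared with 0.685 in all promoter regions of the list, while introns (0.292) and intergenic DNA (0.205) were lower. Own promoters were taken from starts of any transcript of the gene. They thus include regions at internal starts of short or non-coding transcripts, as at Dnmt3a-210, Dnmt3a-214, Dnmt3b-212, Tet1-202 and Tet1-209.

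**Figure D4:**
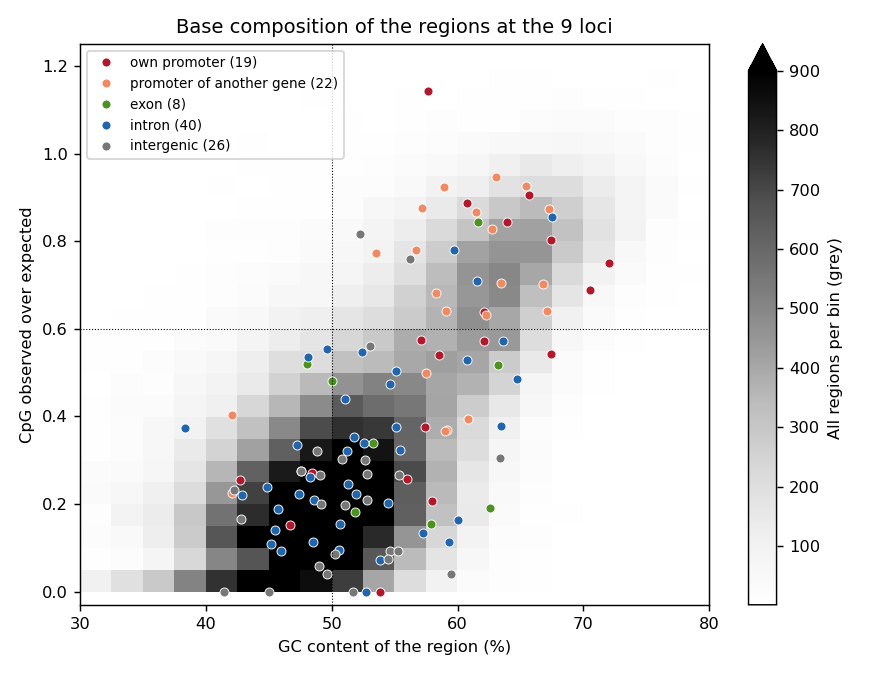
GC content (%) and ratio of observed to expected CpGs of the 115 regions, coloured by their place in the annotation, over the density of all 81132 regions in grey; dotted lines mark 50% GC and a ratio of 0.6. The 29 CpG-rich regions in the upper right part are mainly promoters, and intronic and intergenic regions lie mostly below the line.

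Motifs were searched as exact letters on both strands of each whole region. An octamer was found in 3 of the 115 regions (2.61%, interval 0.891% to 7.39%) and in 2.66% of all regions, and the SOX-OCT core in 2 (1.74%) and in 1.66% of all. Within 300 bp around the centres, the core was left in 1 region (0.870%), compared with 1.34% of all. The regions with an octamer or a core lay at 3 loci and outside promoters. At Dnmt3l, a single region of 151 bp (chr10:78096777-78096927), 54.9 kb downstream of the 5′ end and 23513 bp from the closest TSS, that of Icosl, held both, as printed above. At Tet1, the octamer lay in a region of 320 bp just past the 3′ end (chr10:62803973-62804292), and at Tet2 in an exonic region of 167 bp (chr3:133513598-133513764). The core at Tet2 lay in its widest intronic region, which also held a SOX match. SOX matches occurred in 22 regions (19.1%, interval 12.99% to 27.3%; all regions 16.0%), at each of the 9 loci. ESRRB (TCAAGGTCA) and STAT (TTCCNGGAA) were matched in 5 regions each (4.35%; all regions 2.24% and 1.89%), KLF (CCACACCC) in 10 (8.70%; 7.73%; within 300 bp around the centres 5.22%; 6.17%) and TCF (ATCAAAG) in 4 (3.48%; 6.04%). In the same window of 300 bp, TCF was left in 2 regions (1.74%), compared with 4.57% of all. A match describes letters and not binding of a factor, and the shares of the 16 motifs are given with no test.

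CTCF matches were found in 11 regions (9.57%, interval 5.43% to 16.3%; all regions 5.93%), 4 at Uhrf1, 3 at Dnmt3l and 2 each at Dnmt3a and Dnmt3b, and in none of the regions at Dnmt1, Tdg and the Tet genes. At Uhrf1 they lay 47.0, 39.1 and 12.0 kb upstream and 54.3 kb downstream of the 5′ end, on both sides of the gene. At Dnmt3l they lay 23.0 and 13.6 kb upstream and, in the promoter of Aire, 1609.5 bp downstream of the 5′ end. At Dnmt3b they lay 48.9 kb upstream and 45.3 kb downstream, the latter in chr2:153694608-153694937 next to Dnmt3c. At Dnmt3a, 1 lay within the gene near its 3′ end (chr12:3906477-3906647) and 1 beyond it, 120 kb from the 5′ end (chr12:3926239-3926425).

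Of the promoter motifs, the GC box was matched in 42 regions (36.5%; all regions 29.3%), of which 28 were among the 41 promoter regions, compared with 66.7% of all promoter regions. The CCAAT box was matched in 22 (19.1%; 16.1%) and the E-box in 16 (13.9%; 9.67%). NRF1, matched in 5 regions (4.35%, interval 1.87% to 9.78%; all regions 1.02%), included the starts of Dnmt1 and Uhrf1 and those of Dna2 and Ccar1 at the Tet1 locus. CRE was matched in 4 (3.48%, interval 1.36% to 8.60%; 1.16%), at the starts of Tdg, S1pr2, Ppan and Dguok. Each of the 2 motifs was matched in 4 of the 41 promoter regions, compared with 3.25% (NRF1) and 3.40% (CRE) of all promoter regions. Within 300 bp around the centres, NRF1 was left in 1 region (0.870%; all regions 0.635%) and CRE in 2 (1.74%; 0.765%). E2F was matched in 3 regions (2.61%; 1.95%), all promoter regions (3 of 41, compared with 4.99% of all promoter regions), which lay on the starts of Dnmt1 and Uhrf1 and also held an ETS (CCGGAAGT) or CCAAT match. YY1 (AANATGGCG) was matched in 4 regions (3.48%; 3.40%).

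**Figure D5:**
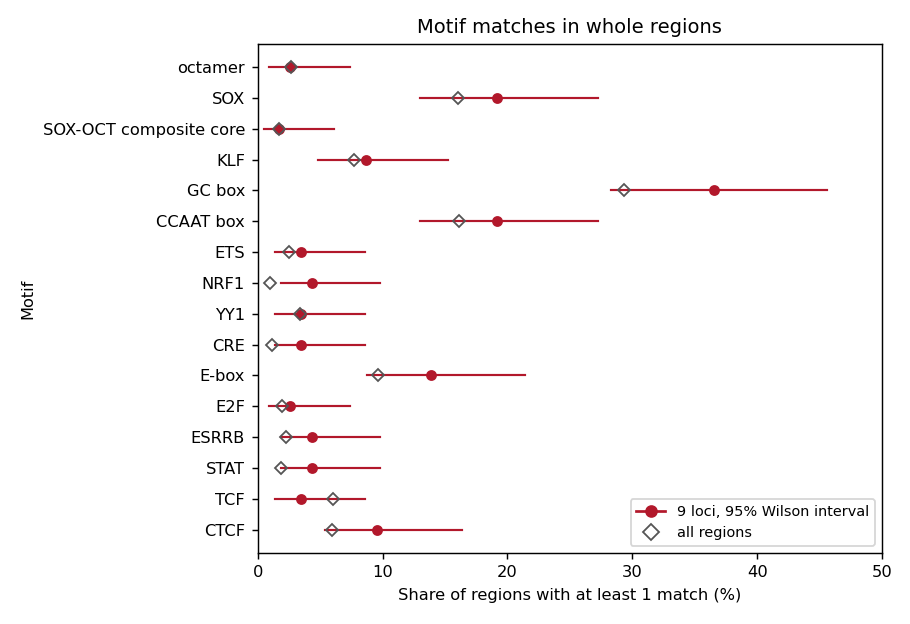
Share of regions with at least 1 match (%) for each of the 16 motifs, at the 9 loci (red, with 95% Wilson intervals for counting error over 115 regions) and over all 81132 regions (open diamonds). The octamer and the SOX-OCT core sit at the share of all regions, and for whole regions NRF1 and CRE are the motifs whose interval lies above it.

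The other genes of DNA methylation and demethylation were taken from a list, of which 50 are reported. A TSS of an APPRIS principal transcript was covered at 41 of them, compared with 55.7% of all protein-coding genes. A region covered a TSS of a protein-coding transcript at 46 of the 50 genes, compared with the 59.5% of all protein-coding genes given above, and their loci held a median of 9 regions. By role, this was 7 of 8 partners in maintenance (Uhrf2, Hells, Cdca7, Cdca7l, Zbtb24, Usp7 and Pcna), 7 of 9 de novo factors and their guides, 7 of 7 readers of methyl-CpG, 6 of 6 partners and cofactor suppliers of the TET enzymes, 12 of 12 repair and deamination genes, 3 of 4 binders of unmethylated CpGs and 3 of 3 genes of methyl donor supply, as well as Trdmt1. The 4 without one were Dppa3, Dnmt3c, Ehmt2 and Kmt2a, with the nearest region 1525, 1715, 2777 and 69 bp from a start. Dppa3, which protects the maternal genome from demethylation, had 14 regions in its locus, 13.95 per 100 kb. The KRAB zinc finger cofactor gene Trim28 and Zfp57, which guard imprints, had the highest densities of the list, 17.5 and 17.4 regions per 100 kb, while the X-linked reader gene Zbtb33 had 1 region. Densities above all 9 member genes were found at Trim28, Zfp57 and others of the list, such as Mbd3 (15.3) and Xrcc1 (15.1).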

How the data were processed

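ATAC-seq regions of sorted SBROS cells were analysed. Per the labels and the study's methods, the authors aligned reads to mm10 with STAR (2.5.3a), kept unique reads, removed duplicates with Picard, called peaks in each library with MACS2 (2.1.1.20160309), merged them and discarded those that overlapped peaks of a ChIP-seq input; no shift for Tn5 is named. The deposited list has positions and no level, so the depth behind a region is unknown and no test between populations was made. The ChIP-seq samples were not analysed here. The member genes, gene lists and motifs were chosen with earlier results of these data known. Named are the 9 genes, 50 pathway genes (2 of the list are not reported here, and the counts leave them out), marker genes and neighbours with a start inside a locus; regions were described singly mostly when they covered a start, were the widest outside promoters, or held an octamer, SOX-OCT core or CTCF match, and others were picked after seeing the tables. A percentile is the share of protein-coding genes below a gene, with ties counted in part. Python (3.11.15), numpy (2.4.6), pysam (0.24.0) and matplotlib (3.10.9) were used, and assignment, distances and motif search were tested on simulated data. No region ran past a chromosome end. Alternatives changed the distance, TSSs, joining and minimum width of regions, promoter bounds and windows.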

Additional observations from a re-analysis of the deposited data

How the results depend on the processing

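The list is pooled and holds no level, so no replicate could be left out, and region boundaries set which starts are covered. No paired analysis was possible because the regions carry no replicate or population. Across 8 results, 35 alternatives were computed, of which 21 were classed as near the value given and 14 as moved. The class of near values is wide, since it takes in the total of 161 within 100 kb, compared with 115. The number of regions at the 9 loci, 115, and the median per gene, 13, fell by construction with narrower rules: to 58 and 4 within 10 kb of a TSS, 74 and 6 within 20 kb, 51 and 4 in the gene body alone, 50 and 3 when the closest TSS of any gene had to be that of the gene, and 61 and 3 for the closest protein-coding gene. Within 100 kb the median was 20 and the total 161. The order of the genes changed as well. Within 100 kb, Dnmt3b had 24 regions, Dnmt1 23 and Dnmt3a 22. By the closest protein-coding gene, Tet2 had 17 and Dnmt3a 14. With regions at most 500 bp apart joined, Tet2 had 15 and Dnmt3a 14. That joining left Uhrf1 with 10 regions in 114.706 kb and Dnmt3b with 12 in 119.921 kb, so Uhrf1 fell below Dnmt3b in density. The promoter share was 62.6% with promoters of 5 kb to both sides, against 45.7% of all regions by that definition. The number of genes with a region on a TSS was 3 of 9 when the annotated 5′ end alone was used, against 52.5% of all protein-coding genes by that definition, and 5 with APPRIS principal transcripts, an alternative chosen after seeing the data, as was the GENCODE basic set, which gave 7. Joining regions, leaving out those narrower than 200 bp and the other window for CpG content left the values over the 9 loci together near those given, as did a window of 300 bp for SOX, the octamer and CTCF. In that window, NRF1 fell from 5 regions to 1 (0.870%; all regions 0.635%), CRE from 4 to 2 (1.74%; 0.765%), TCF from 4 to 2, the SOX-OCT core from 2 to 1 and KLF from 10 to 6, from above the share of all regions to below it (5.22%; 6.17%), while STAT stayed at 5 (4.35%; 1.31%) and the E-box was left in 14 (12.2%; 6.79%).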

Other observations

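Regions were unevenly spaced within the loci. Gaps at the loci were taken only between regions of the same locus, which limits their length. Those over all regions ran up to 63865515 bp, so the values below are not like for like. The median gap between neighbouring regions was 7996 bp at the 9 loci and 11295 bp over all regions, and 14 of the 106 gaps at the loci were at most 500 bp, 4 of them at Dnmt3a and 3 at Uhrf1, compared with 6439 of the 81111 gaps over all regions. The smallest, 51 bp, separated a pair of regions downstream of the starts of Tet1-210 and Tet1-207. The largest gaps ran through the gene bodies of Dnmt1 and Tet1. The locus of Dnmt3a held 14 regions and that of Uhrf1 10 when regions at most 500 bp apart were joined.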
